A study of Mus musculus with 4 samples.

Results

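Population 3, the Runx1+/VE-cadherin+/CD41+ cells taken on day 6 of ES cell differentiation, was compared with population 1, the Runx1-/VE-cadherin+/Flk1+ cells sorted at the same stage. The cells of both arrays were chosen by their sort gates and by no measured signal, and they make up 2 of the 4 arrays. All 4 populations came from 1 line of heterozygous Runx1(Venus/+) ES cells derived from CCE ES cells, in which the fluorescent reporter Venus sits in the 5′UTR behind the proximal promoter P2 of Runx1, so the controls carry the same single modified allele. The cells were grown for 6 days on a layer of OP9 stromal cells with no further treatment. Population 2 (Runx1+/VE-cadherin+/CD41-) and population 4 (Runx1+/VE-cadherin-/CD41+) are given beside the comparison only for reference. Each population was measured on 1 array, no label says that the cultures were separate, and no test or error between populations can be given. A signal above 100 in population 1 or population 3 was found for 8938 of 18194 named genes.

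Blood cells of the embryo arise from haemogenic endothelium, a set of flat vascular cells that carry VE-cadherin and then switch on blood genes, round up and detach. Runx1 is required for this endothelial-to-haematopoietic transition. CD41, the integrin alpha IIb chain encoded by Itga2b, appears on the surface of the earliest cells committed to blood and later on megakaryocytes and platelets. Endothelium that stays vascular keeps its junctions, caveolae and basement membrane. The comparison asks how cells with both VE-cadherin and the blood markers differ from VE-cadherin+ cells in which the Runx1 reporter is silent.

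The genes behind the sort gates followed the gates, apart from Itga2b, which also had signal in the CD41- cells of population 2. Runx1 had signals of 55.3 in population 1, 358 in population 2, 1297 in population 3 and 2440.2 in population 4. The difference between populations 1 and 3 was at least 12.97-fold. The signal in population 1 lay below 100 and was raised to 100 for this fold, as in all folds here, so the fold is a lower bound. Itga2b read 667 in population 1, 1135 in population 2, 2418 in population 3 and 1609.5 in population 4, 3.62-fold higher in population 3. Cdh5, the gene of VE-cadherin, had 5683 in population 1 and 4849 in population 3, and Kdr, the gene of the VEGF receptor Flk1, had 5866 in population 1 and 4835 in population 3. Both of these were less than 2-fold apart, while in population 4 they read 40.9 and 906. In RNA of sorted cells, fewer cells with a transcript and less of it per cell cannot be told apart.

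Population 3 exceeded population 1 at least 2-fold for 504 genes (5.64% of the 8938 measured) and lay at least 2-fold under it for 218 (2.44%). A difference of 4-fold or more was found for 40 genes on the higher side (0.448%) and 34 on the lower side (0.38%), while 91.9% of genes lay within 2-fold. Of the measured genes, 735 were above 100 in population 3 but not in population 1 and could not come out lower, and 272 were above it in population 1 only and could not come out higher. The median log2 ratio over all genes was 0.32, with quartiles of 0.05 and 0.57, and 78.3% of genes lay above 0, so a common offset between the arrays enters every value. Centring each array on its median removed 0.24 of it and left 255 genes at least 2-fold higher (2.92%) and 318 lower (3.64%), so that the share of higher genes among the 2-fold differences went from 69.8% to 44.5%. At least 4-fold, the centred counts were 26 (0.298%) and 43 (0.492%). The control probe sets pointed opposite ways, since the 18 hybridisation controls averaged a log2 ratio of -0.32 and the 24 poly-A controls one of 0.25. The balance between higher and lower genes changed with the scale. The 20 largest differences in each direction stayed at least 2-fold on each scale, but they were chosen as the largest (log2 at least 2.35 either way), so offsets of this size could not undo them. With the mean over probe sets, 39 of these 40 genes kept their direction and 34 stayed at least 2-fold. Without probe sets shared between transcripts, 31 and 29 of 33 did. Over all settings the log2 ratios of Dlk1, Prss23 and Reln came to 0 at their smallest. Those of further named genes at least 2-fold apart did too, among them Angpt2, Anxa1, Id2, Klf5, Laptm5, Meis2, Mgst3, Ncam1, Top2a, Tspan32 and Wdr12. The ratio of 3′ to 5′ signal for actin ran from 1.28 to 1.39 in the 4 arrays and for Gapdh from 0.847 to 0.901. Where a gene at least 2-fold apart had a further probe set above 100, all its further probe sets went the same way for 188 of 192 higher genes and 85 of 86 lower genes, against 3088 of 3766 among all genes.

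**Figure D1:**
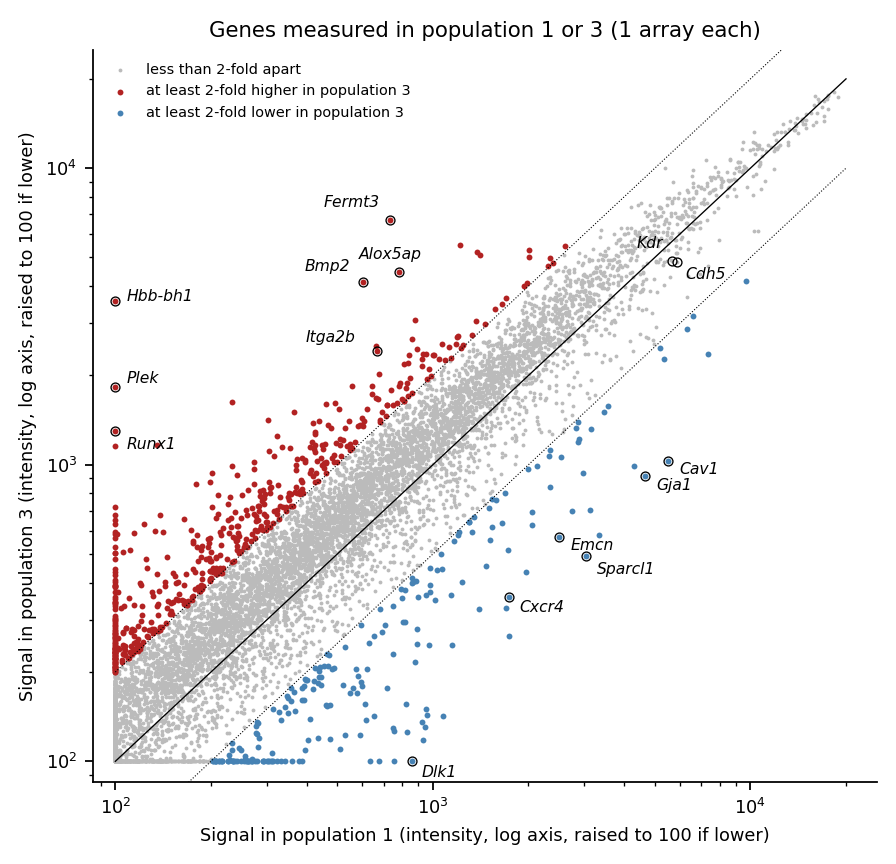
Signal of each of 8938 genes in population 1 (horizontal) and population 3 (vertical) on log axes, 1 array each, with signals below 100 drawn at 100. The solid line marks equal signals and the dotted lines a 2-fold difference. Red points are the 504 genes at least 2-fold higher and blue points the 218 genes at least 2-fold lower in population 3. Hbb-bh1, Plek and Runx1 lie on the left edge, since their signals in population 1 were below 100, whereas Cdh5 and Kdr lie between the dotted lines.

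The 20 genes furthest above population 1 ranged from globin and integrin regulator genes to transporters and a deaminase relative. The embryonic beta-like globin gene Hbb-bh1 came first, with 73.3 in population 1 and 3568 in population 3, and its further probe sets read 3603 and 2744 in population 3. Plek, which encodes the platelet protein kinase C substrate pleckstrin, had a signal of 12.3 in population 1, 55.0 in population 2, 1826 in population 3 and 4099 in population 4. It was thus below 100 in populations 1 and 2 and well above it in both populations gated as CD41+. Fermt3, the kindlin that activates integrins in blood cells, was already at 4355 in population 2 and differed 9.10-fold between populations 1 and 3, at 734 and 6684. Ikzf2, which encodes the zinc finger factor Helios, was 8.59-fold higher and Ptpn6, the gene of the tyrosine phosphatase SHP-1, at least 6.49-fold higher. The protein kinase C gene Prkca was at least 6.31-fold higher, the sialic acid lyase gene Npl 6.99-fold higher, and Reln, which encodes the secreted glycoprotein reelin, at least 6.75-fold higher.

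A further set of these genes, together with Npl and Sash3, was highest in population 3 of all 4 arrays. Slco4a1, an organic anion transporter gene, had 89.5, 69.2, 1161 and 318 in populations 1 to 4, and Apobec2, a member of the cytidine deaminase family, had 62.4, 169, 718 and 179. Bmp2, the gene of a bone morphogenetic protein, had 602, 1953, 4141 and 1802, and Bmper, whose product binds BMPs, had 101, 324, 585 and 76.8. Alox5ap, which presents arachidonic acid to 5-lipoxygenase, had 780.0, 984, 4454 and 1090.3. Each of these 5 read lower in population 4 than in population 3, unlike Plek, Runx1 and Fermt3. The same held for Npl, with 233, 831, 1629 and 561 in populations 1 to 4, and for Sash3, with 115, 143, 591 and 221. The remaining genes among the 20 largest were Pla2g4a (at least 5.95-fold higher), the zeta-globin gene Hba-x (at least 5.68-fold), Depdc1b (at least 5.86-fold), AI467606 (at least 5.29-fold), the ubiquitin ligase gene Marchf3 (5.16-fold) and the lymphoid adaptor gene Sash3 (5.15-fold). For 12 of the 20 genes the signal in population 1 was below 100, and over all genes 20 had at least 400 in population 3 and less than 100 in population 1.

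**Figure D2:**
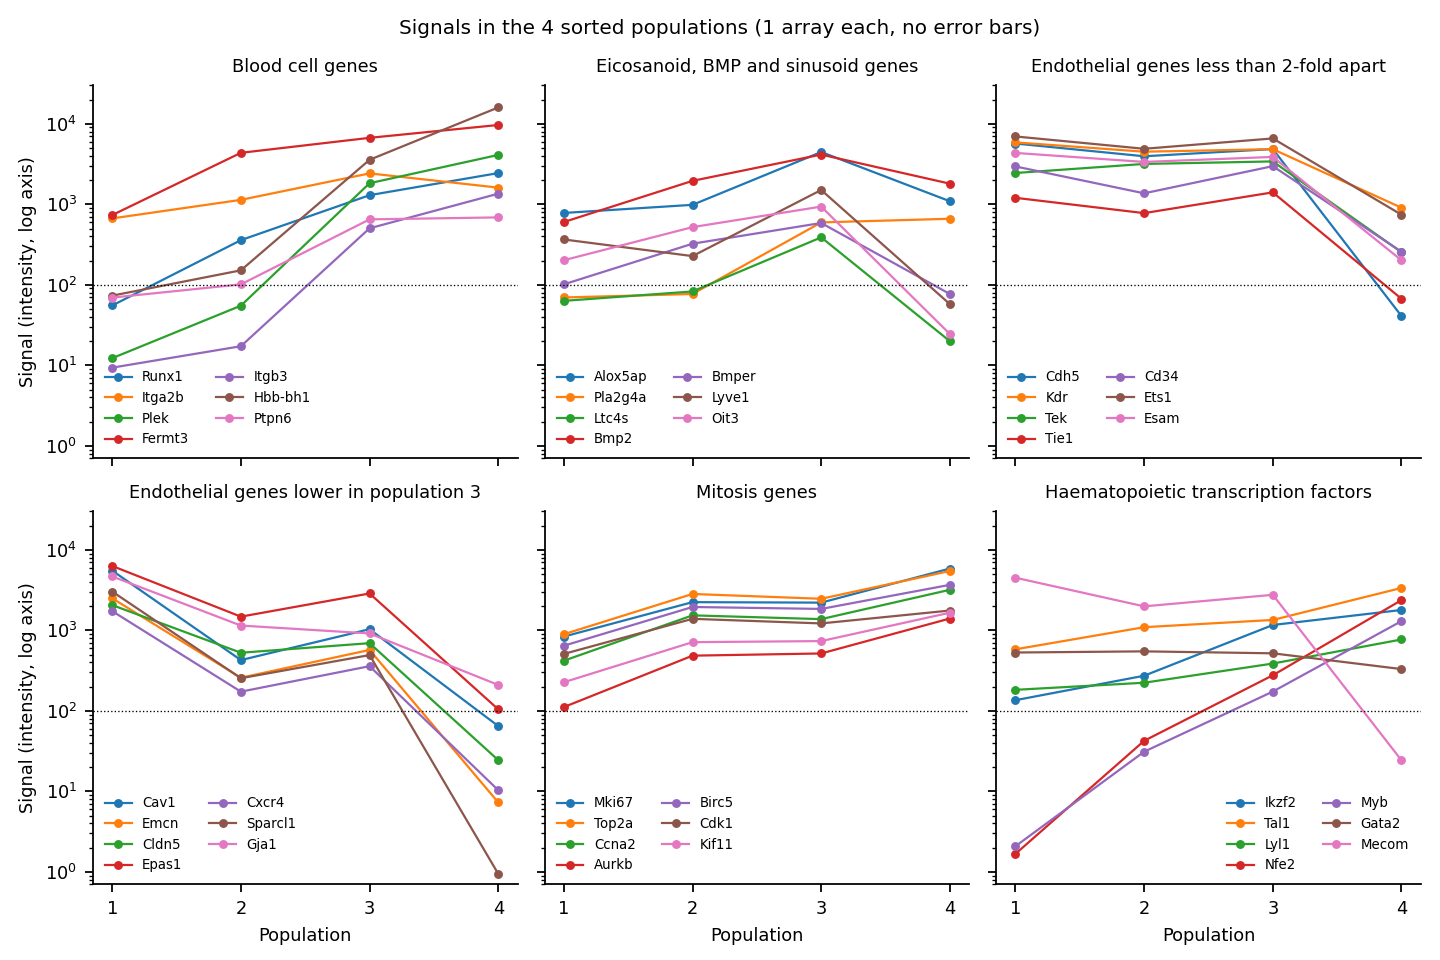
Signals of named genes in populations 1 to 4 on a log axis, 1 array each and without error bars, in 6 panels by role; the dotted line marks a signal of 100. Plek and Itgb3 are below 100 in populations 1 and 2, Alox5ap, Bmp2 and Lyve1 peak in population 3, and Cdh5, Kdr and Tek differ little between populations 1 and 3 before the lower signals of population 4.

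The 20 genes furthest below population 1 included surface receptors, matrix proteins and caveolar components along with cytosolic and lysosomal proteins. Dlk1, a non-canonical Notch ligand, read 861 in population 1, 129 in population 2, 71.6 in population 3 and 45.1 in population 4, at least 8.61-fold lower in the CD41+ cells. Cdc42ep3, an effector of the small GTPase Cdc42, had 933, 44.5, 118 and 881 in populations 1 to 4 and so returned in population 4 to about its signal in population 1. Sparcl1, a matrix-associated glycoprotein gene, had 3032, 254, 493 and 0.945, and Cav1, the gene of the caveolar coat protein caveolin 1, had 5513, 427, 1033 and 64.7. Both of these were lower in population 2 than in population 3. Igfbp5, an insulin-like growth factor binding protein, was 7.54-fold lower, the endocytic adaptor gene Dab2 at least 7.52-fold lower, the addressin gene Madcam1 7.20-fold lower and the matrix protein gene Tgfbi 6.78-fold lower. Ackr3, a scavenging receptor for the chemokine Cxcl12, was 6.67-fold lower, and Npr3, the clearance receptor for natriuretic peptides, 5.97-fold lower. The other genes of the 20 were Flrt3, Ctsh (a lysosomal protease), S100a16, Kctd12b, Pcdh17, Sema3g, Prss23, Cavin3, Cyyr1 and Gja1, which were between 5.11-fold and at least 6.76-fold lower. For all 20 genes population 2 also lay at least 2-fold under population 1, a step that shares the array of population 1.

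Endothelial genes were at least 2-fold apart more often than measured genes in general, mostly on the lower side. Of 55 endothelial genes measured, 40 (72.7%, against 91.9% of all genes) were less than 2-fold apart, 11 (20%, against 2.44%) at least 2-fold lower and 4 (7.27%, against 5.64%) at least 2-fold higher, and the median log2 ratio was -0.30, or -0.54 after centring and 0.02 when arrays were scaled on the hybridisation controls. Ets1, a transcription factor of endothelium, read 6954 in population 1, 4887 in population 2, 6571 in population 3 and 741 in population 4. Tek, the gene of the angiopoietin receptor Tie2, had 2446, 3169, 3405 and 254 in populations 1 to 4, and Tie1, its partner receptor, had 1203, 776, 1406 and 66.9. Populations 1 and 3 were near each other in all of these, and population 4 was far lower. The sialomucin gene Cd34 had 2950.1 and 2974 in populations 1 and 3, the adhesion molecule gene Esam 4341 and 3873, the ETS factor gene Fli1 2155 and 2701, Erg 1178 and 1368, the apelin receptor gene Aplnr 3129 and 3442 and the fenestral diaphragm gene Plvap 3484 and 2864. From population 3 to population 4 the median log2 ratio of the 55 genes was -3.10, against 0.02 over all genes. The 55 include Cdh5 and Kdr, genes behind the sort gates, which lay within 2-fold between populations 1 and 3.

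The endothelial genes at least 2-fold lower in population 3 included markers of mature or specialised endothelium. Emcn, the gene of the surface mucin endomucin, had 2498 in population 1, 258 in population 2, 571 in population 3 and 7.28 in population 4, 4.38-fold lower in population 3. Claudin 5 (Cldn5), the tight junction protein, was 2.97-fold lower, and Robo4, a guidance receptor of endothelium, 3.25-fold lower. Epas1, the gene of the hypoxia-inducible factor HIF-2 alpha, had 6299, 1479, 2869.8 and 104 in populations 1 to 4 and was 2.20-fold lower. Mcam (CD146) was 2.40-fold lower, the adhesion receptor gene Adgrf5 3.26-fold lower and the lectin gene Clec14a at least 3.61-fold lower. Among the SoxF transcription factors, Sox7 was 2.08-fold lower with 2331 and 1119, Sox17 had 2770.2 and 1572 and Sox18 1367 and 1309, so that only Sox7 of these 3 was 2-fold apart. This depended on the scale, since over all settings the log2 ratio of Sox7 ran from -1.39 to -0.73 and that of Sox17 from -1.14 to -0.49. Sox11, of another Sox group, was 4.05-fold lower. The hyaluronan and lipoprotein scavengers Stab1 and Stab2 were 2.63-fold and at least 2.03-fold lower. After centring, 16 of the 55 genes were at least 2-fold lower and 2 higher.

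The 4 endothelial genes at least 2-fold higher in population 3 were Tspan12, Lyve1, Tal1 and Etv2. Lyve1, a hyaluronan receptor of lymphatic, sinusoidal and yolk sac vessels, had 366 in population 1, 227 in population 2, 1504 in population 3 and 57.5 in population 4, 4.11-fold higher in the CD41+ cells than in population 1. The tetraspanin gene Tspan12 had 303, 972, 1420.0 and 781 in populations 1 to 4, 4.69-fold higher. Etv2, an ETS factor that starts the endothelial and blood programme in mesoderm, had 199, 689.9, 439.6 and 245 and was highest in population 2. The mannose receptor gene Mrc1, also found on sinusoidal endothelium, had 2011, 1593, 3503 and 25.03 and was less than 2-fold apart. Of 12 scavenger receptors measured, Lyve1 was at least 2-fold higher (8.33%, against 5.64% of all genes). Stab1, Stab2 and Clec14a were at least 2-fold lower (25%, against 2.44%). The median was -0.12, and 0.20 on the hybridisation control scale.

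Caveolae, the flask-shaped pits of the endothelial membrane, showed an unequal difference among their components. Cav1 was 5.34-fold lower in population 3, Cav2 3.22-fold lower and Cavin3 5.26-fold lower. The coat gene Cavin1 had 3482, 2137, 3390.3 and 174 in populations 1 to 4 and the dynamin-like ATPase gene Ehd2 225 and 215 in populations 1 and 3, both within 2-fold. These 3 of 8 caveolar genes (37.5%, against 2.44% of all genes) were lower by at least 2-fold and none was higher (5.64% of all genes), with a median of -0.53.

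Junctional genes were within 2-fold about as often as all genes, but mostly on the lower side. Of 20 measured, 18 (90%, against 91.9%) lay within 2-fold, 2 (10%, against 2.44%) at least 2-fold lower and none higher (5.64% of all genes). Of the 20, 17 lay below 0, against 21.7% of all genes. The median was -0.18, which turned to 0.15 on the hybridisation control scale. The exceptions were Cldn5 and the connexin 43 gene Gja1, the second with 4672 in population 1, 1146 in population 2, 915 in population 3 and 209.8 in population 4, 5.11-fold lower in population 3. The arterial connexin 37 gene Gja4 had 1229 and 1545 in populations 1 and 3, the alpha-catenin gene Ctnna1 6478 and 6268 and the zonula occludens gene Tjp1 5205 and 4939.9. Connexin 43 thus differed where connexin 37 lay within 2-fold.

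Basement membrane and matrix genes that were at least 2-fold apart were all lower in population 3. Of 26 measured, 7 (26.9%, against 2.44% of all genes) were at least 2-fold lower and none higher (5.64% of all genes). The median was -0.66, and -0.34 on the hybridisation control scale. The laminin chain genes Lama4, Lamb1 and Lamc1 were 3.17-fold, 2.10-fold and 2.02-fold lower, the nidogen gene Nid2 2.77-fold lower and the collagen receptor gene Itga1 3.31-fold lower. Lama4 had 2969 in population 1, 725 in population 2, 936 in population 3 and 26.9 in population 4. The protease gene Adamts9 was 2.98-fold lower. The collagen IV chains Col4a1 and Col4a2 had 10596 and 6154 and 6331 and 3673, short of 2-fold, and fibronectin (Fn1) had 8134 and 9004. Markers of stromal cells such as OP9 were mostly within 2-fold but nearly all on the lower side. Of 28 on the array, 19 were measured, 6 of them above 100 in population 1 only and so unable to come out higher. Of the 19, 18 lay below 0, against 21.7% of all genes. Col1a2 (1988 and 969.9) and Col6a2 (440.2 and 207) were at least 2-fold lower (10.5%, against 2.44% of all genes). Col5a1 (308 and 616) was 2-fold higher in population 3 (5.26%, against 5.64%). After centring 5 were at least 2-fold lower, and after quantile normalisation 9. The direction of Col1a2 turned with the mean over its probe sets, from a log2 ratio of -1.04 to 0.23. Over the 19 genes the median was -0.75 and the summed signal of all 28 was 9311 in population 1 and 5788 in population 3. Of the defining fibroblast genes, Col1a1, Pdgfra and Lum were below 100 in every population, at most 82.5 in the case of Col1a1. Col3a1 and Postn, like Col1a2, were measured and lay below 0, with log2 ratios of -0.81 for Col3a1 and -0.24 for Postn. The part of stromal RNA in the lower matrix signals was not tested.

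Arterial and Notch genes at least 2-fold apart were mostly lower in population 3. Of 21 measured, 6 (28.6%, against 2.44% of all genes) were at least 2-fold lower and 1 (4.76%, against 5.64%) higher. The median was -0.37, and -0.04 on the hybridisation control scale. Among the ligands, Dll4 had 802 in population 1, 256 in population 2, 356 in population 3 and 21.4 in population 4, 2.25-fold lower in population 3, Jag1 was 2.78-fold lower in addition to Dlk1, and Jag2 had 165 and 124, within 2-fold. Among the receptors, Notch4, which is confined largely to endothelium, was 2.17-fold lower with 2317 and 1067, Notch1 had 5335 and 4037, and Notch2 was 3.09-fold higher with 176 and 544. Over all settings the log2 ratio of Notch2, here 1.63, fell to 0.13 at the lowest, and with the mean over probe sets no gene of this list was at least 2-fold higher. Notch3 had 420.3 and 518. The target gene Hey1 had 5319.7 and 4724, Hey2 413 and 333 and Nrarp 3675 and 3061 in populations 1 and 3, each within 2-fold. The arterial ligand gene Efnb2 had 6961 and 5389.9. The chemokine receptor gene Cxcr4 was 4.83-fold lower and had 1732, 173, 359 and 10.3 in populations 1 to 4, and the BMP9 receptor gene Acvrl1 was 2.11-fold lower.

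Genes of the VEGF, Tie and guidance families, ligands and receptors together, lay within 2-fold about as often as all genes (91.3%, against 91.9%). Of 23 genes measured, Robo4 and Angpt2, the gene of the Tie2 ligand angiopoietin 2 (2.45-fold lower), were the only ones at least 2-fold apart. They made up 8.7% lower, against 2.44% of all genes, while none was higher, against 5.64%. Flt1 had 2784 and 1982 in populations 1 and 3, Flt4 1653 and 1548, Plxnd1 5859 and 5182, Vegfc 5059 and 2919.7 and Nrp1 4256 and 2421. The median of -0.37 became -0.61 after centring, when 7 of the 23 were at least 2-fold lower. Of 20 hypoxia and vasoactive genes, 3 (15%, against 2.44% of all genes) were at least 2-fold lower, with Epas1 among them, and none was higher. The endothelin gene Edn1 was 3.92-fold lower, with 609.7 and 155, and the stress-responsive gene Depp1 3.12-fold lower, with 7373 and 2366. Nos3, the endothelial nitric oxide synthase gene, had 1827 and 1072, and Hif1a 3005 and 3126.

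**Figure D3:**
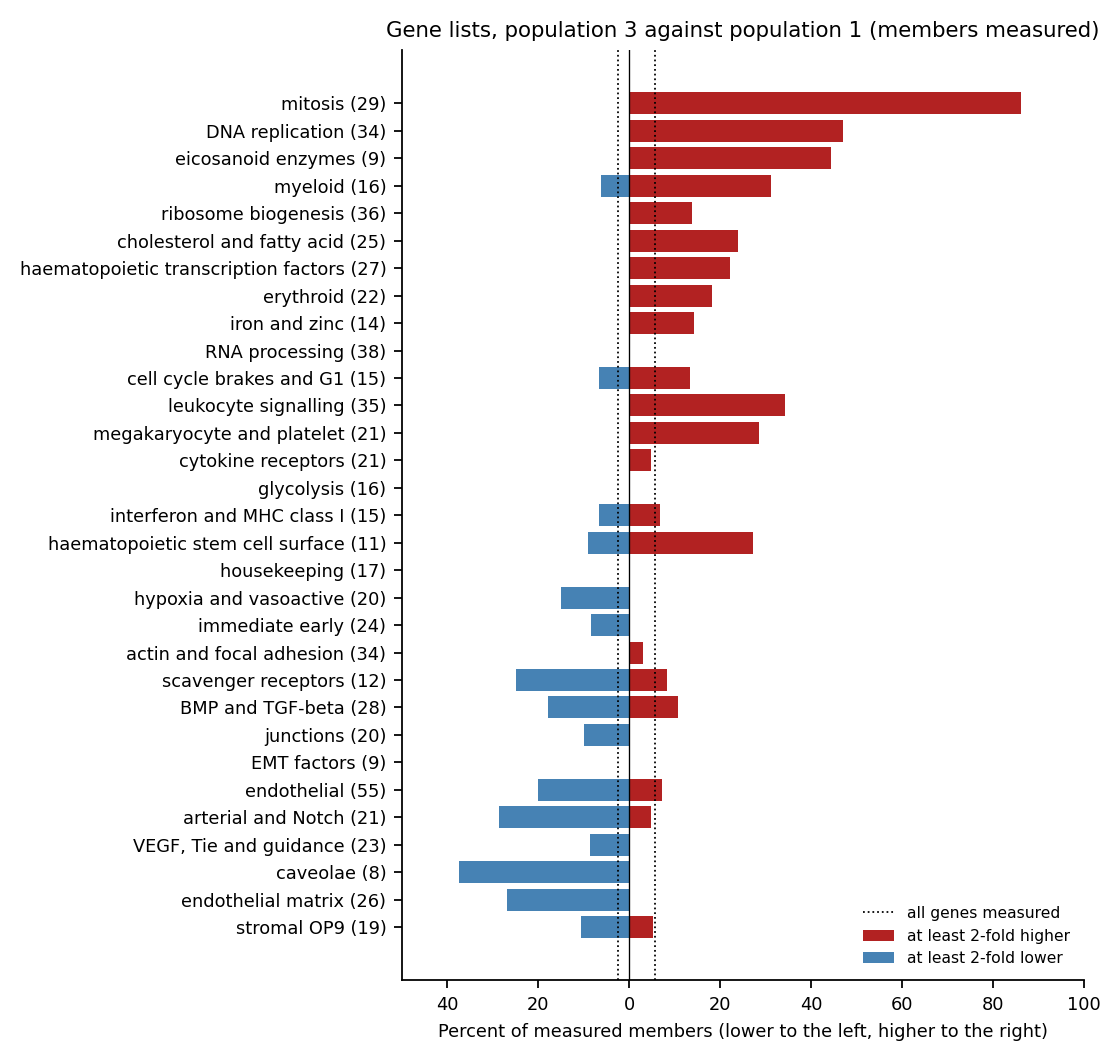
Percent of the measured members of each gene list (number in brackets, lists with at least 8) that were at least 2-fold higher (red, to the right) or 2-fold lower (blue, to the left) in population 3 than in population 1, 1 array each, ordered by median log2 ratio. Dotted lines mark all genes, 5.64% higher and 2.44% lower. Mitosis has the longest red bar, with 25 of 29 genes, and caveolae the longest blue bar, with 3 of 8.

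Haematopoietic transcription factors were higher in population 3 where they differed. Of 38 on the array 27 were measured, and 6 of these (22.2%, against 5.64% of all genes) were at least 2-fold higher and none lower (2.44% of all genes). The median log2 ratio was 0.60, or 0.40 and 3 higher after centring. Of the 27, 6 (Runx1 and Nfe2 among them) were above 100 in population 3 only and could not have come out lower. Besides Runx1, whose reporter is part of the sort gate, and Ikzf2 the higher genes were Nfe2, Tal1, Cebpb and Lyl1. Tal1 (Scl), which with its relative Lyl1 forms complexes with Lmo2 and GATA factors, had 581 in population 1, 1094 in population 2, 1346 in population 3 and 3359.5 in population 4. Lyl1 had 182, 223, 387 and 770.2 in populations 1 to 4, and Nfe2, the p45 subunit of a megakaryocytic and erythroid factor, had 1.67, 42.4, 277 and 2373. Nfe2 was below 100 in populations 1 and 2, so its fold in population 3 is at least 2.77-fold. Cebpb, a factor of myeloid cells among others, was 2.18-fold higher.

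Other factors of the early blood and vascular circuit lay within 2-fold, unlike Tal1, Lyl1 and Etv2. Gata2 had 530.3 and 518 in populations 1 and 3, Lmo2 2052 and 3377, Hhex 1551 and 2217, Etv6 999.8 and 1419 and Cbfb, the partner subunit of Runx proteins, 2016 and 1958. Mecom, the gene of Evi1, had 4503 in population 1, 1985 in population 2, 2761 in population 3 and 24.3 in population 4. Several factors of committed blood cells were just above 100 in population 3 and below it in population 1. Myb had 2.08, 31.1, 174 and 1302 in populations 1 to 4, Ikzf1 2.10, 89.5, 152 and 902 and Spi1, the gene of PU.1, 42.6, 37.3, 154 and 131. Since the lower signal is raised to 100, their folds stayed below 2 (at least 1.74-fold, at least 1.52-fold and at least 1.54-fold). Gata1, Klf1, Gfi1, Runx3 and Cebpa did not pass 100 in either population, with signals in population 3 of 50.7, 25.6, 91.0, 34.0 and 18.4, and Gfi1b reached 100.4. In population 4, Gata1 had 2065 and Klf1 2538.

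Genes of leukocyte signalling and adhesion included the higher genes Plek, Fermt3, Ptpn6 and Sash3 described above. Of 59 on the array 35 were measured. Of these, 12 (34.3%, against 5.64% of all genes) were at least 2-fold higher and none lower (2.44% of all genes). After centring 12 of 33 were higher (2.92% of all genes). Among the 35 genes, 12 were above 100 in population 3 only, 6 of them among the higher genes, and for these the filter on signals leaves no other direction. The median over the 35 was 0.32, about that of all genes. Integrin function was represented by Fermt3, Plek, Rasgrp2, the exchange factor for Rap1 (842 and 2353 in populations 1 and 3), and the beta2 integrin gene Itgb2 (32.1, 81.3, 446 and 739.7 in populations 1 to 4). Of the receptor adaptors, Tyrobp (DAP12) had 16.5, 31.2, 392 and 678 and Fcer1g, the Fc receptor gamma chain, 27.9, 7.68, 346 and 466. Both were below 100 in populations 1 and 2 and above it in populations 3 and 4. Was, the actin regulator of the Wiskott-Aldrich syndrome, was at least 4.26-fold higher, Laptm5, a lysosomal protein of blood cells, 3.89-fold higher, the phospholipase gene Plcg2 2.93-fold higher and Inpp5d, the gene of the phosphatase SHIP1, 2.71-fold higher. Ptprc, the gene of CD45, had 0.927, 2.96, 47.1 and 221 and Vav1 30.5, 35.7, 74.9 and 82.0, so neither passed 100 in populations 1 to 3. Members that differed little included the kinase gene Syk (170.3 and 195), the lipid kinase gene Pik3cd (6097 and 5869) and Lcp1, the gene of L-plastin (1391 and 1123).

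The promoters of the genes at least 4-fold higher in population 3 were searched for the letters that Runx proteins and GATA proteins bind, since these factors are central to the sort and to blood development. The windows ran from 250 bases before to 50 bases after the start of each gene in the RefSeq promoter table (GRCm38.p6). The letters TGTGGT or TGCGGT on either strand, a short form of the Runx motif, occurred in 9 of the 25 such genes with a promoter in the table (36%), against 24.5% of the 7321 measured genes with one. They occurred in 7 of 29 genes at least 4-fold lower (24.1%), in 3 of 14 among the 20 largest higher genes (21.4%) and in 5 of 16 among the 20 largest lower genes (31.25%), so the share was not higher throughout the higher sets. Among genes at least 2-fold higher they occurred in 105 of 402 (26.1%) and among genes at least 2-fold lower in 37 of 166 (22.3%), close to the share of all 27025 genes in the table (25.03%). The GATA letters AGATAA or TGATAA on either strand occurred in 48 of the 402 (11.9%), 26 of the 166 (15.7%) and 11.5% of the measured genes, against 21.0% of all genes in the table. For GATA the genes at least 4-fold apart gave 4 of 25 on the higher side (16%) and 9 of 29 on the lower side (31.0%). Matches of the Runx letters were shown for 6 genes at least 4-fold higher, to show where the letters lie. A match shown needed 10 bases on either side within the 250 bases before the start, and a single chromosome was left out. Per gene the match nearest the start was taken. The other genes of the 9 can hold matches elsewhere in the promoter window. Each window of 26 bases is read 5′ to 3′ on the strand of the gene, with all matched letters in capitals (AI467606 has a pair of matches), and ACCACA and ACCGCA are the same motif on the other strand.
Fermt3: cctcatttccTGTGGTaacaaaagca
Was: ttatttccctTGTGGTttattgtact
AI467606: cACCACActgACCACAtccccaggtt
Atp2a3: cccggacacaACCACAaacaccctcg
Mdm1: ggctccgcccACCGCAgctccggtat
Slc39a8: gtccccaaacACCACAttcactttac
The window of Fermt3 lies at chr19:7019478-7019503 on the minus strand, with the first base of the motif 24 bases before the start, and that of Was at chrX:8090513-8090538 on the minus strand, 37 bases before it. The other windows lie on the plus strand, at chr7:127091249-127091274 for AI467606, chr11:72960934-72960959 for Atp2a3, chr10:118141627-118141652 for Mdm1 and chr3:135825129-135825154 for Slc39a8. A match describes letters only and shows no binding. The signals of these genes in populations 1 and 3 were 734 and 6684 for Fermt3, 38.0 and 426 for Was, 17.2 and 529 for AI467606, 87.6 and 503 for the calcium pump gene Atp2a3, 179 and 860.2 for Mdm1 and 198 and 878 for the zinc transporter gene Slc39a8.

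Some genes of platelets and megakaryocytes were higher in population 3, while markers of late megakaryocytes were below or near 100. Of 36 on the array 21 were measured, with 6 (28.6%, against 5.64% of all genes) at least 2-fold higher, none lower (2.44% of all genes) and a median of 0.31. The 6 include Itga2b, the gene of the CD41 sort gate. Of these 21, 10 were above 100 in population 3 only, including 4 of the 6 higher genes, and could not have come out lower. Itgb3, whose beta3 chain pairs with CD41 in the fibrinogen receptor, read 9.35 in population 1, 17.3 in population 2, 503 in population 3 and 1354 in population 4, at least 5.03-fold higher in population 3. It was below 100 in populations 1 and 2, where its partner Itga2b read 667 and 1135. Rab27b, which serves granule secretion, was 4.26-fold higher and F13a1, a coagulation factor chain, at least 4.07-fold higher. Of the late markers, Pf4 (platelet factor 4) had 49.9, 48.5, 124 and 343 in populations 1 to 4, the glycoprotein gene Gp9 31.8 and 179 in populations 3 and 4, and the platelet tubulin gene Tubb1 52.0 and 1742. The lectin gene Clec1b, which is expressed by platelets and some endothelium, had 2514, 616, 2627 and 951 and the thrombin receptor gene F2r 11855 and 9966 in populations 1 and 3. The von Willebrand factor gene Vwf, shared by endothelium and platelets, had 1566 and 870.0.

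Embryonic globins were far above population 1 while most erythroid genes lay within 2-fold. Of 6 globin genes on the array, 3 were above 100 in population 3 and none in population 1, so no globin gene could come out lower. Hbb-bh1 was higher by at least 35.7-fold, Hba-x by at least 5.68-fold and Hbb-y by at least 2.71-fold. Hba-x had 46.0 in population 1, 41.4 in population 2, 568 in population 3 and 10684 in population 4, and Hbb-y 11.3, 15.2, 271 and 13284 in populations 1 to 4. These 3 were much lower in population 3 than in population 4. The adult genes Hbb-b2, Hba-a1 and Hba-a2 had 37.1, 2.47 and 50.9 in population 3 by the probe sets assigned to them, although near-identical globin genes can share signal. Of 22 other erythroid genes measured, 4 (18.2%, against 5.64% of all genes) were at least 2-fold higher and none lower (2.44% of all genes), with a median of 0.56 (0.32 after centring). Of the 22, 4, with Nfe2 among them, were above 100 in population 3 only. The carbonic anhydrase gene Car2 had 1221, 4722, 5511 and 9870.3, the glycophorin gene Gypc 211, 427, 685 and 1381, and the haem synthesis gene Cpox 135, 215, 428 and 1888, with Nfe2 as the fourth. Alas2, the first enzyme of haem synthesis in red cells, and Slc4a1, the band 3 anion exchanger, had 44.8 and 28.6 in population 3 against 2396 and 2204 in population 4. From population 3 to population 4 the median log2 ratio of the 22 genes was 2.37, against 0.02 over all genes. The part of cells from the VE-cadherin- gate in the globin signal was not tested.

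Most myeloid genes on the array stayed at or below 100 in populations 1 and 3. Of 41 on the array 16 were measured, 5 of them at least 2-fold higher (Alox5ap, Tyrobp, Fcer1g, Csf1r and Mpo) and Anxa1 at least 2-fold lower, with a median of 0.67. These shares were 31.25% and 6.25%, against 5.64% and 2.44% of all genes. Of the 16, 8 were above 100 in population 3 only, among them 4 of the 5 higher genes, and could not have come out lower. Csf1r, the receptor of macrophage colony-stimulating factor, had 43.5 in population 1, 46.1 in population 2, 222 in population 3 and 388 in population 4, and the granule peroxidase gene Mpo had 21.4, 61.2, 222 and 158 in populations 1 to 4. The annexin gene Anxa1 was 2.46-fold lower, with 706 and 287 in populations 1 and 3. Some markers of mature granulocytes and macrophages stayed below 100 in population 3, with 70.9 for lysozyme (Lyz2), 12.4 for elastase (Elane), 1.56 for Itgam (CD11b) and 15.8 for Cybb. Others passed 100 there without reaching 2-fold, as the Fc receptor gene Fcgr3 had 12.7 and 185 in populations 1 and 3, the macrophage marker gene Cd68 155 and 236, the granulocyte colony-stimulating factor receptor gene Csf3r 60.1 and 155 and Mrc1 2011 and 3503. Most lymphoid genes were near background, since 4 of 20 on the array were measured, with Rag1 at 0.321 and Il7r at 6.28 in population 3. None of the 4 was 2-fold apart, among them Ebf1 with 540 and 772 and Notch1 with 5335 and 4037 in populations 1 and 3. The mast cell protease gene Cpa3 had 5.28.

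Several enzymes that make leukotrienes were higher in population 3. Pla2g4a, the cytosolic phospholipase A2 that frees the fatty acid, read 69.5 in population 1, 76.9 in population 2, 595 in population 3 and 661 in population 4, at least 5.95-fold higher in population 3. Alox5ap was 5.71-fold higher, Ltc4s (leukotriene C4 synthase) had 63.2, 82.6, 388 and 19.9 in populations 1 to 4 and was at least 3.88-fold higher, and Mgst3, a microsomal glutathione transferase, was 2.87-fold higher. These were the 4 of 9 measured genes of the list at least 2-fold apart (44.4% higher, against 5.64% of all genes), around a median of 0.84. Of the 9, 4 were above 100 in population 3 only, Pla2g4a and Ltc4s among them. Alox5 itself, the 5-lipoxygenase, had 35.9, 26.7, 130.4 and 171, which is just above 100 in population 3 and below it in population 1. The leukotriene A4 hydrolase gene Lta4h had 1024 and 1247 in populations 1 and 3, and the prostacyclin synthase gene Ptgis 299, 797, 533 and 57.5 in populations 1 to 4. Ltc4s was thus above 100 in population 3 alone, whereas Pla2g4a was above it in populations 3 and 4.

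Cytokine receptors and their kinases were at least 2-fold higher about as often as all genes. Of 21 measured, Csf1r was the single one at least 2-fold apart (4.76%, against 5.64% of all genes), around a median of 0.29. After centring Csf1r was less than 2-fold apart and Il10rb, a chain of the IL-10 receptor (527 and 268), was at least 2-fold lower. The stem cell factor receptor gene Kit had 1918 in population 1, 2032 in population 2, 2093 in population 3 and 703 in population 4, and the leukaemia inhibitory factor receptor gene Lifr had 1683 and 2789 in populations 1 and 3. The erythropoietin receptor gene Epor had 81.1, 59.4, 122 and 1092 in populations 1 to 4, Csf2rb, the shared beta chain of the IL-3 and GM-CSF receptors, 208, 59.1, 339.8 and 2050.3, and Flt3 20.6 in population 3. Among surface markers used to isolate haematopoietic stem cells, Itgb3, the tetraspanin gene Tspan32 (at least 2.46-fold) and Adgrg1, the adhesion receptor GPR56 (at least 2.08-fold), were at least 2-fold higher and Cd82 2.53-fold lower, out of 11 measured. These shares were 27.3% and 9.09%, against 5.64% and 2.44% of all genes. Procr, the endothelial protein C receptor, had 583, 541, 859.6 and 38.2.

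BMP components differed in both directions. Of 28 genes of the BMP and TGF-beta pathways, 3 (10.7%, against 5.64% of all genes) were at least 2-fold higher and 5 (17.9%, against 2.44%) lower. The median of -0.13 turned to 0.19 on the hybridisation control scale. Among ligands and their binders, Bmp2 was 6.88-fold, Bmper 5.78-fold and Tgfb1 2.05-fold higher, whereas Tgfb2 was 3.24-fold lower, with 549 and 169, and Bmp4 had 256 and 165. Of the receptors, Acvr1 was 2.03-fold and Acvrl1 2.11-fold lower, and Bmpr2 had 2451 and 2362 in populations 1 and 3. Of the Id genes, targets of BMP signalling in many cells, Id2 was 3.41-fold and Id3 2.38-fold lower, with Id1 at 1166 and 751. Over all settings the log2 ratio of Id2 ran from -2.14 to 0. Id3 read 3142 in population 1, 1518 in population 2, 1319.6 in population 3 and 55.1 in population 4. The inhibitory Smad6 had 777, 795, 1481 and 1069 in populations 1 to 4 and was thus highest in population 3, at less than 2-fold above population 1, while Smad7 had 582 and 687.

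**Figure D4:**
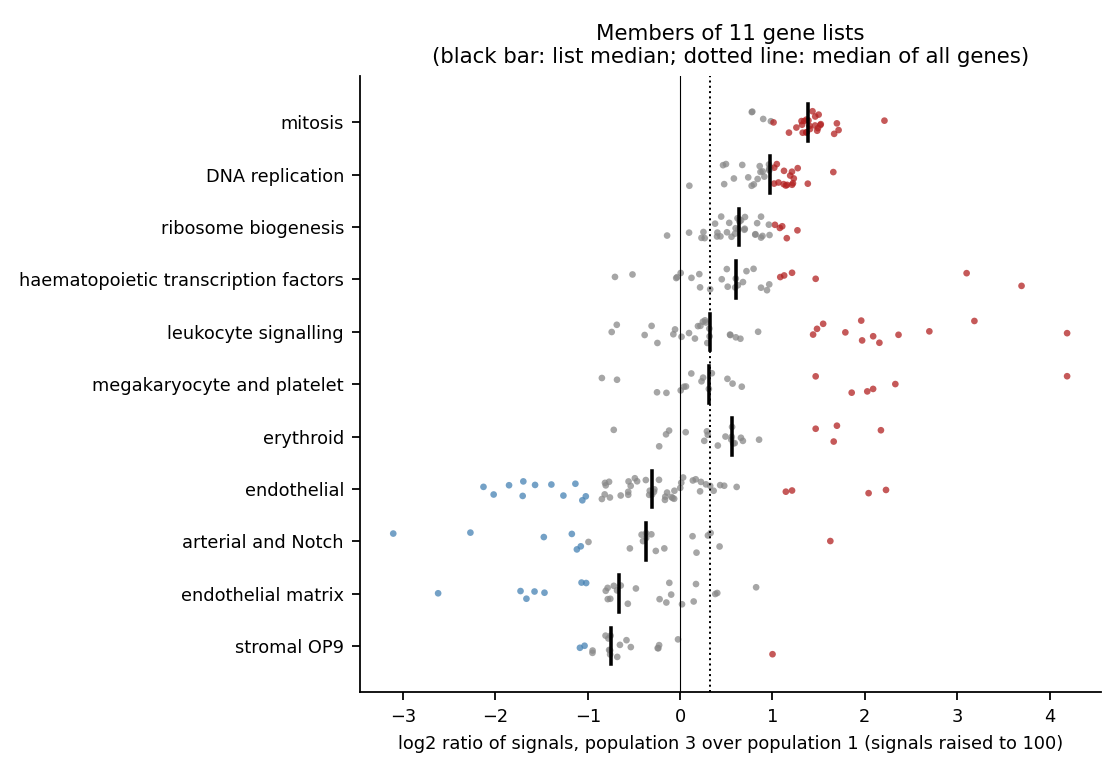
log2 ratio of population 3 over population 1, 1 array each, for every measured member of 11 gene lists (points, spread vertically for sight), with signals below 100 raised to 100. Red points are at least 2-fold higher and blue points 2-fold lower, the black bar is the list median and the dotted line the median of all genes at 0.32. All 29 mitosis genes lie above 0, while 38 of 55 endothelial genes lie below it.

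Cell division genes were higher as a block. Of 29 mitosis genes measured, all were above 0 (78.3% of all genes were) and 25 (86.2%, against 5.64% of all genes) at least 2-fold higher. The median log2 ratio was 1.39 (1.15 and 23 genes after centring). The proliferation antigen gene Mki67 had 836 in population 1, 2239.6 in population 2, 2208 in population 3 and 5854 in population 4. Aurkb, the kinase of the chromosomal passenger complex, had 111, 485, 516 and 1402 in populations 1 to 4 and was 4.63-fold higher, the cyclin gene Ccna2 was 3.28-fold higher, the spindle motor gene Kif11 3.24-fold higher and the topoisomerase gene Top2a 2.76-fold higher. None of the 29 was 2-fold apart between populations 3 and 2, and the list medians against population 1 were 1.51 in population 2, 1.39 in population 3 and 2.51 in population 4, comparisons that share the array of population 1. DNA replication genes were higher by less. Of 34 measured, 16 (47.1%, against 5.64% of all genes) were at least 2-fold higher, none was below 0 and the median was 0.97, but 3 were at least 2-fold higher after centring. The primase gene Prim1 was 3.16-fold higher, the thymidine kinase gene Tk1 at least 2.61-fold higher, and the helicase genes Mcm5 and Mcm7 2.23-fold and 2.07-fold higher, while the clamp gene Pcna had 4014 and 6008 in populations 1 and 3.

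Among regulators of the cell cycle, Cdkn1c, the gene of the inhibitor p57, was 2.30-fold lower in population 3, with 3451 in population 1, 989 in population 2, 1502 in population 3 and 188 in population 4. Cdkn2d, the gene of the inhibitor p19Ink4d, was 2.87-fold higher with 416, 686, 1194 and 2037 in populations 1 to 4, and the D cyclin gene Ccnd3 2.34-fold higher with 922 and 2159. The related genes Ccnd1 and Ccnd2 had 1582 and 1549.6 and 1570.4 and 1347 in populations 1 and 3, and Cdkn1a, the gene of p21, had 2497 and 2598. Of the D cyclins only Ccnd3 was therefore at least 2-fold apart, with a log2 ratio of 1.23 that fell to 0.94, short of 2-fold, at its lowest over all settings.

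Growth-related genes were shifted by smaller amounts. Ribosome biogenesis had 35 of 36 members above 0 (97.2%, against 78.3% of all genes) and a median of 0.64 (0.40 after centring). On the deposited scale 5 genes (13.9%, against 5.64% of all genes) were at least 2-fold higher, and 1 after centring. The assembly factor gene Wdr12 was 2.41-fold higher, the dyskerin gene Dkc1 2.15-fold higher, and the nucleolin gene Ncl had 5197 and 7385. The list of cholesterol and fatty acid synthesis had all 25 measured members above 0 and 6 (24%, against 5.64% of all genes) at least 2-fold higher. These were the cholesterol genes Dhcr7, Mvd, Pmvk, Lss, Idi1 and Mvk, each between 2.03-fold and 2.21-fold, and none was 2-fold higher after centring. Of 38 RNA processing genes none was 2-fold apart and all were above 0, again beside 78.3% of all genes, with a median of 0.38, near the 0.32 of all genes. Of 16 glycolysis genes none was 2-fold apart. Both lists were thus 100% within 2-fold, against 91.9% of all genes. The zinc importer gene Slc39a8 was 4.42-fold higher, with 198, 764, 878 and 6209 in populations 1 to 4, and the related Slc39a4 2.18-fold higher, while the iron genes Tfrc and Fth1 had 907 and 1641 and 7240.0 and 10666 in populations 1 and 3. Of 17 housekeeping genes none was 2-fold apart, beside the same 91.9% of all genes, and their median of 0.12 became -0.12 after centring.

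Genes of adhesion to the substrate, of the shift from epithelium to mesenchyme and of acute responses were mostly within 2-fold, as were 91.9% of all genes. The shares within 2-fold were 97.1% for actin and focal adhesion and 100% for the mesenchymal shift. They were 91.7% for immediate early genes and 86.7% for interferon and MHC class I genes. Of 34 actin and focal adhesion genes, Fermt3 was the single one at least 2-fold apart (2.94% higher, against 5.64% of all genes). After centring 4 were at least 2-fold lower and 1 higher. Fermt2, a relative of Fermt3, had 3709 in population 1, 2777 in population 2, 3073 in population 3 and 238 in population 4 and talin (Tln1) 1048 and 1291. In population 4, Fermt3 was higher and Fermt2 lower than in population 1. None of 9 genes of the mesenchymal shift was 2-fold apart, with N-cadherin (Cdh2) at 2583 and 1324 and vimentin (Vim) at 16083 and 14290.5 in populations 1 and 3. Of 24 immediate early genes, Ier3 was 2.61-fold and Fos 2.06-fold lower (8.33%, against 2.44% of all genes). The flow-responsive factor Klf2 had 1629.9, 1142, 2471 and 284 in populations 1 to 4, highest in population 3. Among 15 interferon-inducible and MHC class I genes, Ifitm1 was 2.41-fold higher and Xaf1 at least 2.35-fold lower, with Ifitm2 at 2248 and 3956 and B2m at 4563 and 3895. Each share was 6.67%, against 5.64% higher and 2.44% lower over all genes.

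Markers of other lineages that the gates could hold were largely at background. The pluripotency genes Pou5f1, Nanog and Zfp42 had 4.58, 1.62 and 11.1 in population 3, although Lin28a had 293 in population 1, 1023 in population 2, 775 in population 3 and 184 in population 4 and was 2.65-fold higher, and Klf5 2.42-fold higher. Of 22 cardiac and smooth muscle genes on the array 7 were measured. Of these, the troponin genes Tnni1 (80.2 and 286) and Tnnt2 (127 and 277) exceeded population 1 at least 2-fold (28.6%, against 5.64% of all genes). The atrial light chain gene Myl7 had 39.7 and 39.2. Isl1, a factor of cardiac mesoderm, was at least 2.17-fold lower, with 217 and 16.3. The adhesion gene Ncam1 was 2.59-fold higher, with 372, 1094, 963 and 69.4 in populations 1 to 4. Among homeobox genes Meis2 was 4.65-fold lower, with 512, 129, 110.0 and 45.4, while its relative Meis1 had 169.9 and 326 and Hoxb4 115 and 173 in populations 1 and 3.

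Seen across the other arrays, the genes that set population 3 apart had different profiles. For the 504 genes at least 2-fold higher, the log2 ratios of populations 2, 3 and 4 over population 1 had medians of 0.84, 1.24 and 1.72, against 0.02, 0.32 and 0.35 for all genes. For the 218 lower genes these medians were -1.45, -1.31 and -2.20. Since the genes were chosen by the array of population 1, which all 3 ratios share, these medians describe the genes and test nothing. From population 3 to population 4 the median log2 ratio was 0.49 for the higher genes and -0.59 for the lower genes. Some of the higher genes, such as Plek, Itgb3, Tyrobp and Fcer1g, were below 100 in population 2, with signals of 55.0, 17.3, 31.2 and 7.68. At the limit of 2-fold, Heatr3 had 362 and 724 in populations 1 and 3 and Col5a1 308 and 616, just inside, and Gle1 had 336 and 670.3 and Ppp5c 266 and 532, just outside. On the lower side Zfp423 (465 and 231) lay inside and Ednrb (1335 and 668) outside.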

How the data were processed

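RNA of 4 cell populations sorted by flow cytometry on day 6 was labelled with biotin and hybridised to 1 Affymetrix mouse genome array each. The authors deposited probe set signals as intensity values on a linear scale, and their processing notes name MAS5 and GCOS 1.3. How the arrays were scaled to each other, which probes were masked and which signals were called detected is not given in the sources used here, and the number of arrays (1 per population) limits the precision. The Agilent arrays, embryo arrays and ChIP-Seq data were not used here.

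Probe sets were named through the platform annotation, with symbols updated through RefSeq gene records (GRCm38.p6). Of 45101 probe sets, 34958 had 1 symbol and were kept, 932 had several and 9211 none. For each of the 18194 genes the probe set brightest on average (log2) was taken, and 9012 genes had more than 1. Genes above 100 in population 1 or 3 were compared, with lower signals raised to 100, and folds that rest on a raised signal are lower bounds. No test was made, since each population has 1 array. Genes count as apart at a ratio of at least 2.

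Named genes are the sort markers, the 20 largest differences in each direction (signal of at least 400, all further probe sets above 100 going the same way), list members at least 2-fold apart and, for each list, members with high signals within 2-fold. Defining markers below 100 are named to show absence. Atp2a3 and Mdm1 were named for their promoter matches, and Heatr3, Gle1, Ppp5c, Zfp423 and Ednrb for their place at the limit. Fcgr3, Cd68, Csf3r, Jag2, Notch3 and Il10rb were chosen after their values were seen. The comparison, gene lists and rules were chosen with earlier results of these data known. A gene can belong to several lists.

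The comparison was repeated after centring of the arrays, quantile normalisation and scaling on hybridisation or poly-A controls (the last chosen after seeing the data), with probe sets averaged, without those shared between transcripts, and with other floors and signal minimums. Promoter windows come from RefSeq. Python 3.11.15, pandas 2.3.3, numpy 2.4.6 and matplotlib 3.10.9 were used, and the computation was tested on simulated data.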

Additional observations from a re-analysis of the deposited data

How the results depend on the processing

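Each population has 1 array, so no replicate could be left out. No paired analysis was possible because each population has a single array. The counts of genes at least 2-fold higher and lower in population 3 (504 and 218) and at least 4-fold higher and lower (40 and 34) depended on the scale. Quantile normalisation gave 236, 379, 24 and 54, and scaling on the hybridisation controls 1469, 113, 79 and 20. Centring gave 255 higher at 2-fold and 26 at 4-fold, and poly-A scaling, chosen after seeing the data, 253 and 26, while the lower counts of both stayed within 1.5 times. With signals raised to 50 instead of 100, 71 genes were at least 4-fold higher, and with signals raised to 200 the counts were 331 and 138 at 2-fold and 16 higher at 4-fold. The mean over probe sets, where fewer genes passed 100, gave 142 lower at 2-fold and 21 and 20 at 4-fold, and leaving out shared probe sets gave 21 lower at 4-fold. The minimum signal, left out or set to 200, could change none of the counts, since a 2-fold ratio over signals raised to 100 already needs a signal of 200. Of the named genes at least 2-fold apart, Col1a2 alone reversed, from a log2 ratio of -1.04 to 0.23 for the mean over probe sets. The cause was not tested. Some genes less than 2-fold apart changed sign between settings, such as Cdh5 (-0.48 to 0.10) and Kdr (-0.53 to 0.05). Of the 174 named genes at least 2-fold apart, 137 remained so in the same direction after centring, 132 after quantile normalisation, 156 on the hybridisation controls and 120 with the mean over probe sets. With the mean over probe sets, 161 of the 174 kept their direction rather than falling to 0 or turning. Without shared probe sets, 133 of 145 did. Differences between signals near 100 cannot be resolved at this intensity.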
